A study of Mus musculus with 6 samples.

Results

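The microvillus structure genes studied here are 10 genes of the cytoskeleton and adhesion complex of the brush border, taken by symbol from a table of 47643 genes: Vil1, Ezr, Eps8, Myo1a, Myo7b, Cdhr2, Cdhr5, Ush1c, Pls1 and Krt20. All 10 were found and all 10 were among the 12720 genes with enough counts to be tested. Their levels were compared in intestinal mRNA of 3 control libraries (Mycfl/fl) and 3 libraries labelled MycΔIE, ERT2, a tamoxifen-inducible deletion of the transcription factor gene Myc in the intestinal epithelium (Myc-deleted). The mice of both groups were C57BL/6 males of 7 to 8 weeks that were given tamoxifen and a diet with 60% fat for 2 weeks. The labels do not name the gut segment, the promoter of the recombinase, or whether the controls carry one, so the effects of Myc loss and of the recombinase cannot be told apart.

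Enterocytes, the absorptive cells of the gut, carry a dense array of microvilli, each a finger of membrane around a bundle of parallel actin filaments. Villin (Vil1), plastin 1 (Pls1) and espin cross-link the bundle, Eps8 caps filament ends at the tip, ezrin (Ezr) and myosin 1a (Myo1a) tie the bundle to the membrane, and the protocadherins Cdhr2 and Cdhr5 join the tips of neighbouring microvilli. Harmonin (Ush1c) and myosin 7b (Myo7b) hold those protocadherins at the tips, and keratin 20 (Krt20) belongs to the intermediate filaments of mature enterocytes.

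Of the 10 genes, 8 had an entry among the RefSeq promoter sequences (GRCm38.p6), and their last 250 bases before the annotated start were searched on both strands for short motifs. None of the 8 held CACGTG, the canonical site of Myc with its partner Max, which 6.02% of 32851 promoters of the same length held. The looser form CANNTG, which contains CACGTG as a special case, was present in 5 of 8, against 66.2% of all promoters. Upstream sequences of 4 genes are shown because they belong to the main bundler, the adhesion pair and the keratin, whose levels are compared below. They are chr1:74409134-74409383 (plus strand) for Vil1, chr13:54701213-54701462 (plus strand) for Cdhr2, chr7:141276787-141277036 (minus strand) for Cdhr5 and chr11:99438154-99438403 (minus strand) for Krt20, each written 5′ to 3′ along its gene. Capitals mark the CArG box of serum response factor, the looser Myc-type motif CANNTG, the CDX-type core TTTATG, the motif AGATAA bound by GATA factors, and the initiation motif TATAAA, on either strand.
Vil1: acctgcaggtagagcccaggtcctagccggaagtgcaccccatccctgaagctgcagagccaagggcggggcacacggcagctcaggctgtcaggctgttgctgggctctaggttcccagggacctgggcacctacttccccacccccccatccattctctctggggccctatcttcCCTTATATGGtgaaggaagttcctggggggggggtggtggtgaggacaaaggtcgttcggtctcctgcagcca
Cdhr2: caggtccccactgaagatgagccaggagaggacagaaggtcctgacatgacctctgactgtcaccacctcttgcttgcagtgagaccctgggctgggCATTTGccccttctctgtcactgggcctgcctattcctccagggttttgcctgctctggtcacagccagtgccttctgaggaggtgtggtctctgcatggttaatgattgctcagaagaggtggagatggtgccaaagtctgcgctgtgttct
Cdhr5: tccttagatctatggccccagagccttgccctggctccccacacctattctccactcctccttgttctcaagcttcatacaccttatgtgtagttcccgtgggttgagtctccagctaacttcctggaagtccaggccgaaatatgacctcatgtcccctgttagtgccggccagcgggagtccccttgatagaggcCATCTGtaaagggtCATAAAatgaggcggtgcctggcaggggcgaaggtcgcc
Krt20: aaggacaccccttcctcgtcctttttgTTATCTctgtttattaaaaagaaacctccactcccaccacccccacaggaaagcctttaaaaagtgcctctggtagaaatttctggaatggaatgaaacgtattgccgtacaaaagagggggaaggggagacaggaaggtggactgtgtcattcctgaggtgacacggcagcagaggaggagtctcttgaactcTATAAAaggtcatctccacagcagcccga
The capitals in Vil1 are a CArG box that begins 73 bases before the start, a motif present in 1 of the 8 and in 1.47% of all promoters. The CArG box was searched after the Vil1 sequence had been read. GC-rich GGGCGG, left in lower case, was in 3 of the 8, Vil1, Ezr and Ush1c, against 32.7% of all promoters. Krt20 held TATAAA beginning 29 bases before its start and was the only one of the 8 with it, against 12.4% of all promoters. Krt20 also held AGATAA, which 9.99% of all promoters held. Cdhr5 held a match to TTTATG (10.8% of all promoters), and Cdhr2 and Cdhr5 each held 1 CANNTG. CAAAGTCCA, a core of HNF4 sites, was in none of the 8 and in 0.384% of all promoters. A match is only a run of letters in this window.

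Libraries held 9956938 to 11328693 expected counts. Myc itself did not check the labels, since counts summed over a whole gene cannot separate deleted from remaining exons. It stood at 5.86, 6.05 and 6.03 CPM (counts scaled to library size) in the controls and at 3.29, 4.36 and 5.81 CPM in the Myc-deleted mice (edgeR adjusted p = 0.318), so the library labelled Myc-deleted 3 was close to the controls. The level of Fabp6, which encodes an ileal carrier of bile acids, was 9567 to 12490 CPM in every library, and that of Alb, the main product of hepatocytes, was 0.0929 to 3.20 CPM, although the extraction protocol names liver.

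None of the 10 microvillus genes differed between the groups by the edgeR quasi-likelihood test with Benjamini-Hochberg adjustment over all 12720 genes. In the same test, 7.95% of all genes passed, and 15.7% of the 643 genes whose mean log2 CPM reached 8, a level that all 10 microvillus genes exceeded. At an unadjusted p under 0.05 edgeR counted 0 of the 10, where 22.2% of all genes stood. DESeq2 and limma voom also called 0, and each had 1 gene, Eps8, at an unadjusted p under 0.05. In edgeR the unadjusted p of Eps8 was 0.0512, and 0.0511 with RLE scaling. It was 0.0279 with upper-quartile scaling and 0.0268 with scaling to pan-epithelial genes. The groups overlapped for all 10, while they did not overlap for 27.8% of all genes. The median log2 fold change of the 10, Myc-deleted over control, was 0.03, against -0.002 for all genes, with 7 positive and 3 negative; Vil1, Myo1a, Pls1 and Krt20 turned to just below 0 with upper-quartile scaling, and Myo7b to just above 0 with RLE scaling and DESeq2. Nothing in the labels says that each library came from its own animal, so these p-values measure only the spread between libraries, which may be technical.

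**Figure D1:**
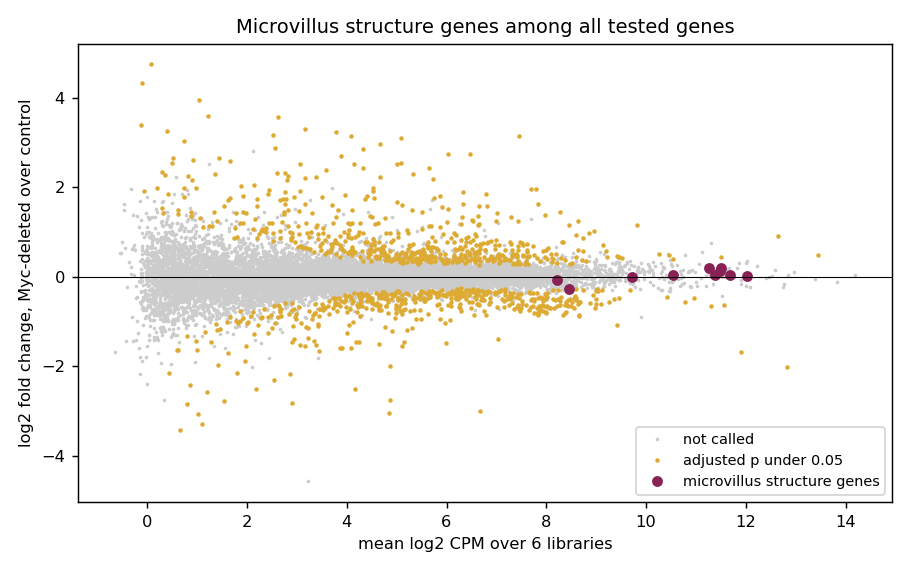
Each dot is 1 of 12720 tested genes, with the mean log2 CPM over the 6 libraries on the x axis and the log2 fold change, Myc-deleted over control, on the y axis. The 10 microvillus structure genes (large dots) lie between 8.22 and 12.03 on the x axis and between -0.29 and 0.19 on the y axis, and genes with an adjusted p under 0.05 are in yellow.

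A p above the threshold does not show that levels were alike, and the intervals give the sizes that these data leave possible. For the 9 genes other than Eps8, the 95% intervals of the log2 fold change ran from -0.23 to 0.46 at their outermost, which corresponds to changes between -14.7% and 37.5%. For Eps8 the interval ran from -0.58 to 0.002, or from -33.0% to 0.122%. Standard errors were 0.07 to 0.13 on the log2 scale. Each gene had at least 3006 expected counts in every library. For Ush1c, with 3040 to 3415 counts and a coefficient of variation of 2.86% among controls, counting error makes up a sizeable part of that spread. All 60 expected counts of the 10 genes were whole numbers, so no fraction of a read shared with a paralog is visible in them.

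**Figure D2:**
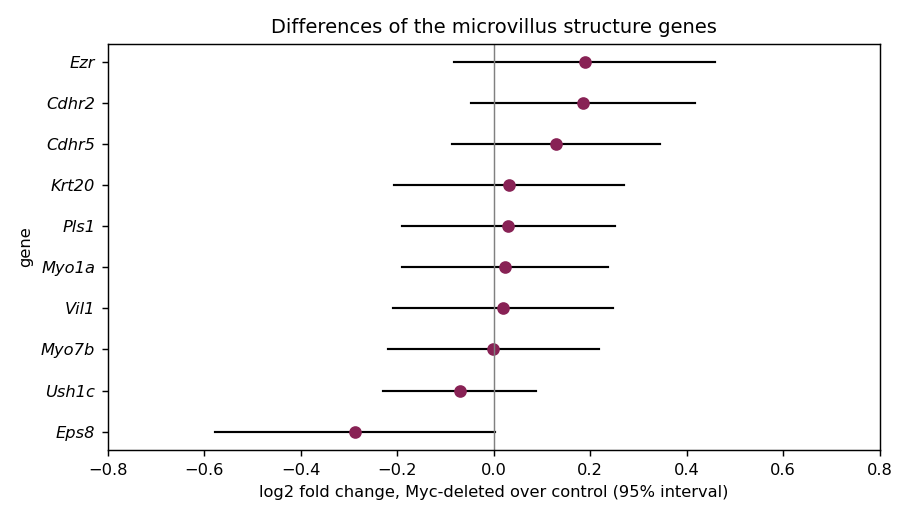
Points give the log2 fold change, Myc-deleted over control, of each microvillus structure gene, and lines its 95% interval from the edgeR quasi-likelihood fit of 3 against 3 libraries. All 10 intervals contain 0; that of Eps8 reaches from -0.58 to 0.002, and those of Ezr and Cdhr2 lie mostly above 0.

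Among the genes of the actin bundle, Vil1 (ENSMUSG00000026175.12, chromosome 1, 74409376 to 74435559, GRCm38) encodes the calcium-regulated bundler villin. Vil1 stood at 4132, 3840 and 4503 CPM in control libraries 1 to 3 and at 4404, 4216 and 4023 CPM in Myc-deleted libraries 1 to 3. Every Myc-deleted value lay inside the range of the controls. The means were 4158 ± 332 and 4214 ± 190 CPM (SD, n = 3 each), with a log2 fold change of 0.02 ± 0.10 (SE, edgeR adjusted p = 0.935). Regulatory sequence of Vil1 often drives recombinases in the gut epithelium; the labels do not say whether it did here, and counts per gene cannot show whether a transgene added to them.

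Pls1 (ENSMUSG00000049493.13, chromosome 9, 95752642 to 95845311) encodes plastin 1, the bundler that also anchors the rootlets in the terminal web. It stood at 1407, 1400 and 1618 CPM in the controls and at 1598, 1549 and 1371 CPM in the Myc-deleted mice. The lowest value belonged to a Myc-deleted library and the highest to a control. The log2 fold change was 0.03 ± 0.10 (SE, edgeR adjusted p = 0.896). The ratio of Pls1 to Vil1, both per kilobase of exon, was 0.324 ± 0.0115 among controls and 0.326 ± 0.0130 after Myc deletion (SD, n = 3 each), and the groups overlapped. This and the ratios below were chosen after the values were seen and were not tested.

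Eps8 (ENSMUSG00000015766.14, chromosome 6, 137477245 to 137654876) encodes the tip protein that caps and bundles actin and sets microvillus length. It was the most variable of the 10, with the highest library 1.49 times the lowest. Its level was 373, 378 and 414 CPM in the controls and 394, 282 and 277 CPM in the Myc-deleted mice. Myc-deleted libraries 2 and 3 lay below every control, while Myc-deleted library 1 lay among the controls. The means were 388 ± 22.6 and 318 ± 66.0 CPM (SD, n = 3 each), with a log2 fold change of -0.29 ± 0.13 (SE, unadjusted p = 0.0512, edgeR adjusted p = 0.229). Without Myc-deleted library 1 the log2 fold change was -0.47 and Eps8 passed (edgeR adjusted p = 0.00997), and the smallest fall in a leave-one-out run was -0.20. Eps8 per kilobase stood at 0.0259, 0.0283 and 0.0264 of Vil1 in the controls and at 0.0257, 0.0193 and 0.0198 of Vil1 in the Myc-deleted mice. This ratio was lower in each Myc-deleted library than in any control, by a narrow margin in library 1. Myc-deleted library 1 had the lowest Myc and the highest Eps8 of its group. Myc counts over the whole gene do not measure the deletion, and a relation between Myc and Eps8 was not tested.

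Of the genes that tie the bundle to the membrane, Ezr (ENSMUSG00000052397.8, chromosome 17, 6738041 to 6782784) encodes ezrin, the linker between actin and the apical membrane. Ezr stood at 2280, 2058 and 2559 CPM in the controls and at 2962, 2589 and 2309 CPM in the Myc-deleted mice. The 2 highest values were Myc-deleted libraries 1 and 2, and library 3 lay within the controls. The log2 fold change was 0.19 ± 0.12 (SE, edgeR adjusted p = 0.408), and it was 0.09 without Myc-deleted library 1, 0.10 without control library 2 and 0.27 without control library 3.

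Myo1a (ENSMUSG00000025401.8, chromosome 10, 127705170 to 127720940) encodes the membrane-bound motor that forms bridges along the side of the bundle. It stood at 2549, 2535 and 2854 CPM in the controls and at 2753, 2795 and 2523 CPM in the Myc-deleted mice. The groups covered almost the same range. The log2 fold change was 0.02 ± 0.10 (SE, edgeR adjusted p = 0.914). Its profile over the libraries was closest to that of Pls1, with a root mean square difference of 0.0308 on the log2 scale after each gene was centred on its mean, the smallest of any pair of the 10.

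In the adhesion complex at the tips, Cdhr2 (ENSMUSG00000034918.8, chromosome 13, 54701461 to 54736662) and Cdhr5 (ENSMUSG00000025497.14, chromosome 7, 141269083 to 141276786) encode the protocadherins that bind each other across neighbouring microvilli. Cdhr2 stood at 2818, 2586 and 2809 CPM in the controls and at 3431, 3105 and 2800 CPM in the Myc-deleted mice. Cdhr5 stood at 2772, 2585 and 2891 CPM in the controls and at 3238, 2904 and 2875 CPM in the Myc-deleted mice. In both genes control library 2 was lowest, Myc-deleted libraries 1 and 2 were above every control, and Myc-deleted library 3 was within the controls. The log2 fold changes were 0.19 ± 0.10 for Cdhr2 (SE, edgeR adjusted p = 0.339) and 0.13 ± 0.10 for Cdhr5 (SE, edgeR adjusted p = 0.487). Neither passed in any leave-one-out run. Cdhr2 ran from 0.11 without Myc-deleted library 1 to 0.25 without Myc-deleted library 3. In the latter run its unadjusted p was under 0.05 (edgeR adjusted p = 0.239). Cdhr5 ran from 0.07 without Myc-deleted library 1 to 0.17 without control library 3, and was 0.08 without control library 2. The ratio of Cdhr2 to Cdhr5 per kilobase was 0.661 ± 0.0152 among controls and 0.686 ± 0.0347 after Myc deletion (SD, n = 3 each), with overlapping groups.

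The cytoplasmic side of the complex had lower levels. Ush1c (ENSMUSG00000030838.17, chromosome 7, 46195350 to 46238503) encodes the scaffold harmonin, which binds the protocadherin tails. It stood at 310, 295 and 311 CPM in the controls and at 304, 283 and 285 CPM in the Myc-deleted mice. This was the narrowest spread of the 10, with the highest library 1.1 times the lowest. The log2 fold change was -0.07 ± 0.07 (SE, edgeR adjusted p = 0.617). Gm9860, annotated on the opposite strand, shares 120 exon bases with Ush1c and has no row in the table; the strand setting of the counting is not given in the sources used here. Myo7b (ENSMUSG00000024388.10) encodes the motor that carries the complex to the tips. It stood at 824, 810 and 900.4 CPM in the controls and at 938, 846 and 750.1 CPM in the Myc-deleted mice, whose values spanned the controls on both sides. The log2 fold change was -0.0004 ± 0.10 (SE, edgeR adjusted p = 0.998).

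Krt20 (ENSMUSG00000035775.2, chromosome 11, 99428403 to 99438150) encodes the keratin of differentiated enterocytes, most abundant toward the villus tip. It stood at 3529, 2874 and 3335 CPM in the controls and at 3512, 3166 and 3275 CPM in the Myc-deleted mice. All Myc-deleted values lay within the range of the controls. The log2 fold change was 0.03 ± 0.11 (SE, edgeR adjusted p = 0.899).

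**Figure D3:**
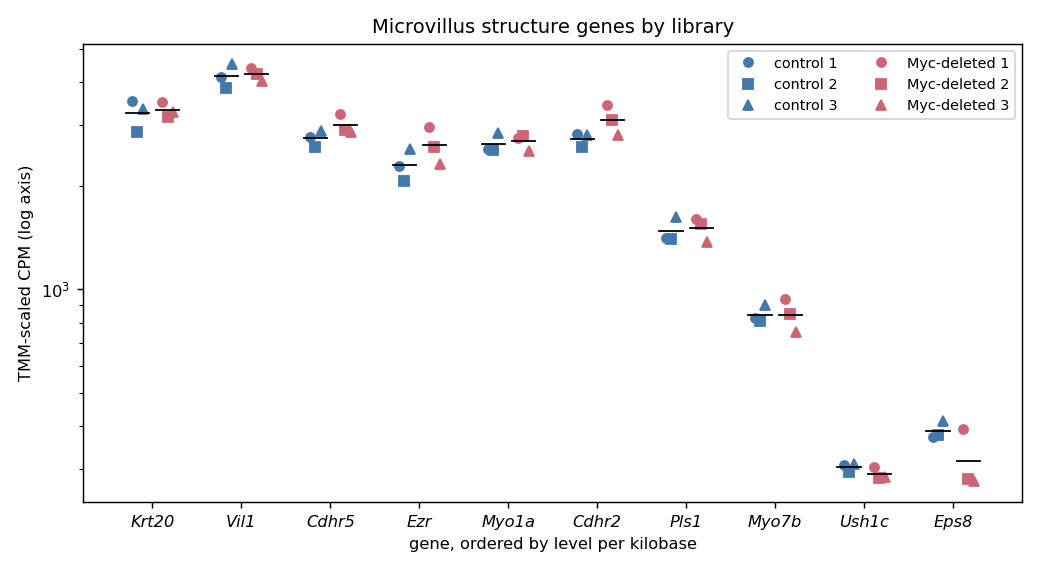
Points give the TMM-scaled CPM of each gene in each library (log axis), with controls in blue and Myc-deleted mice in red, marker shapes for the library number and bars for the group means. The groups overlap for every gene; Eps8 has Myc-deleted libraries 2 and 3 at 282 and 277 CPM, below the controls at 373 to 414 CPM.

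Levels of different genes are comparable only per length of transcript. Per kilobase of merged exons, the mean over the 6 libraries was highest for Krt20 (1703 CPM per kilobase), followed by Vil1 (1179), Cdhr5 (1050), Ezr (748), Myo1a (718), Cdhr2 (708), Pls1 (383), Myo7b (128), Ush1c (77.4) and Eps8 (28.6). Ezr, Myo1a and Cdhr2 overlapped in their ranges and have no clear order, and the ranges of Vil1 and Cdhr5 also overlapped although Vil1 was above Cdhr5 in 6 of 6 libraries. The other neighbours in this order did not overlap. With the longest annotated transcript as length, Eps8 stood at 77.3 in place of 28.6 CPM per kilobase, because its merged exons (12355 bases) far exceed its longest transcript (4567 bases), and it was still the lowest of the 10. Among the 10 genes, those of the shaft and the protocadherins thus had higher levels per kilobase than those of the tip capper and the harmonin complex. Espin, which also cross-links the bundle, is outside the 10, and its level per kilobase is not given here. Among all tested genes, Krt20 lay above 99.8% and Eps8, the lowest of the 10, above 86.7% (93.1% by longest transcript).

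Most of the 10 genes deviated together from library to library. Myc-deleted library 1 was above the gene's own mean log2 CPM in 10 of 10 genes and control library 3 in 9 of 10. Control library 2 was below it in 9 of 10 and Myc-deleted library 3 in 8 of 10. The same shares over all tested genes were not counted, so these counts do not show a pattern particular to the 10 genes. Together the 10 genes took 2.10%, 1.98% and 2.18% of all counts among controls and 2.31%, 2.20% and 2.04% after Myc deletion, so the groups overlapped also in the sum. Summed smooth muscle markers (8 genes) stood at 102 CPM in control library 2 and at 24.0 to 37.3 CPM in the other 5 libraries. The summed villus base markers described below stood at 34990 CPM in control library 2. They were at 19720 and 27210 CPM in control libraries 1 and 3 and at 6660 to 16290 CPM in the Myc-deleted mice. The part of either difference in the low values of control library 2 was not tested. In whole tissue, fewer cells of a type and less RNA per cell cannot be told apart.

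**Figure D4:**
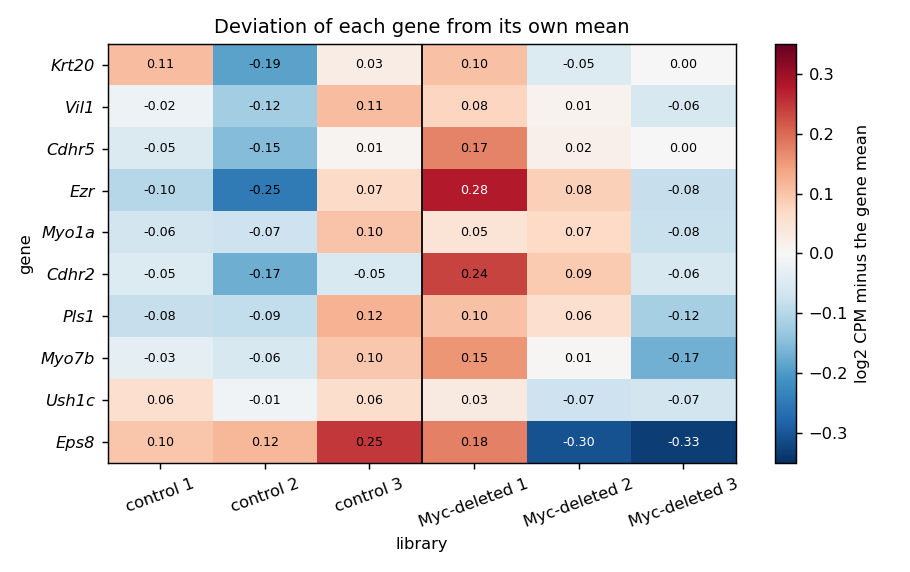
Each cell gives a gene's log2 CPM in a library minus the gene's mean over the 6 libraries (red above, blue below), with the controls left of the line. Control library 2 is below the mean in 9 of 10 genes and Myc-deleted library 1 above it in 10 of 10, and Eps8 departs from the others with -0.30 and -0.33 in Myc-deleted libraries 2 and 3.

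The 5 genes nearest to the mean centred profile of the 10, among 4522 other genes whose mean log2 CPM reached 5, were Ovol1, Eps8l2, Klf13, Myh9 and Snrk, with root mean square differences of 0.0246 to 0.0292 on the log2 scale over 6 libraries. Eps8l2, a relative of Eps8, and Myh9, a nonmuscle myosin of the terminal web, belong to the brush border lists below, and the other 3 do not.

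The wider set of brush border genes held 77 genes in 5 lists, of which 74 were in the table and 72 were tested. Of these 72, 3 rose and 1 fell, at a median log2 fold change of -0.004. That is 4 calls against a background of 4.22% of all genes higher and 3.73% lower. In 25 of 72 the groups did not overlap, against 27.8% of all genes.

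Among 16 other genes of the adhesion complex and actin bundle, 1 rose and 1 fell (median -0.04). In this list 8 of 16 had an unadjusted p under 0.05, against 22.2% of all genes, and the groups did not overlap in 7. Baiap2l2, which encodes an inverse BAR domain protein, went from 197 ± 7.63 to 152 ± 15.9 CPM (SD, n = 3 each) and fell by 0.38 ± 0.09 on the log2 scale (edgeR adjusted p = 0.0286). All its Myc-deleted libraries were below all controls. It kept its call without Myc-deleted library 1 and lost it without any of the other 5 libraries (edgeR adjusted p = 0.0579 to 0.104). Gsn, the actin-severing protein gelsolin and a relative of villin, went from 368 ± 13.7 to 475 ± 13.9 CPM (SD, n = 3 each) and rose by 0.37 ± 0.07 (edgeR adjusted p = 0.0125). Its call was lost when control library 1 (edgeR adjusted p = 0.0546) or control library 2 (0.0802) was left out. Anks4b and Calml4, the remaining parts of the adhesion complex, had log2 fold changes of 0.02 and -0.20 (edgeR adjusted p = 0.913 and 0.177). The bundler gene Espn (-0.04) and the actin nucleator gene Cobl (-0.21) did not pass either. Eps8 has 3 relatives in this list, none of which passed. Eps8l2 stood at 614 and 629 CPM in the controls and the Myc-deleted mice, Eps8l3 at 641 and 783 CPM (log2 fold change 0.29, edgeR adjusted p = 0.211) and Eps8l1 at 3.66 and 3.41 CPM. Eps8l1 and Eps8l3 were named after their values were seen. Among other relatives that did not pass, Vill, close to villin, stood at 2.39 and 2.27 CPM in the controls and the Myc-deleted mice, the plastin gene Lcp1 of blood cells at 51.7 and 43.0, and the plastin gene Pls3 at 1.52 and 2.89.

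Among 17 membrane linkers and motors, 1 rose (median 0.05), and 5 had an unadjusted p under 0.05. The gene that rose was Myo1c, a myosin that links membranes to actin, which went from 87.3 ± 4.11 to 116 ± 14.9 CPM (SD, n = 3 each; log2 fold change 0.40 ± 0.10, edgeR adjusted p = 0.0351) and lost its call without any library other than Myc-deleted 3 (edgeR adjusted p = 0.0752 to 0.165), and with upper-quartile scaling (0.0508). DESeq2 called 2 more genes of the list, Stk10 higher and Calm3 lower (edgeR log2 fold changes 0.46 and -0.26, edgeR adjusted p = 0.0645 and 0.0712), named after their values were seen. Slc9a3r1, the scaffold that binds ezrin, stood at 1641 and 1702 CPM (edgeR adjusted p = 0.823). The ezrin relatives Rdx (2.5 and 2.4 CPM) and Msn (29 and 25 CPM), abundant in other tissues, did not pass. None of 18 terminal web and keratin genes passed in edgeR (median 0.03; 1 had an unadjusted p under 0.05), while DESeq2 and limma voom each called 1, the keratin gene Krt23, named after its values were seen. Of 11 apical trafficking genes, 1 rose (median 0.04) and 2 had an unadjusted p under 0.05. Rab11a, which marks recycling endosomes, went from 119 ± 2.12 to 147 ± 11.4 CPM (SD, n = 3 each; log2 fold change 0.31 ± 0.08, edgeR adjusted p = 0.0396). Rab11a kept its call without Myc-deleted library 1 and lost it without any of the other 5 (edgeR adjusted p = 0.0994 to 0.168). The call was also lost with upper-quartile scaling (0.0642) and with scaling to pan-epithelial genes (0.0867). None of 10 regulators of brush border genes passed in edgeR (median -0.08; 3 had an unadjusted p under 0.05) or limma voom, and DESeq2 called 1 lower, Klf5, also named after its values were seen. Hnf4a and Cdx2, which set enterocyte identity, had log2 fold changes of -0.04 and -0.23 (edgeR adjusted p = 0.841 and 0.245). Without control library 1, Cdx2 stood at -0.10.

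**Figure D5:**
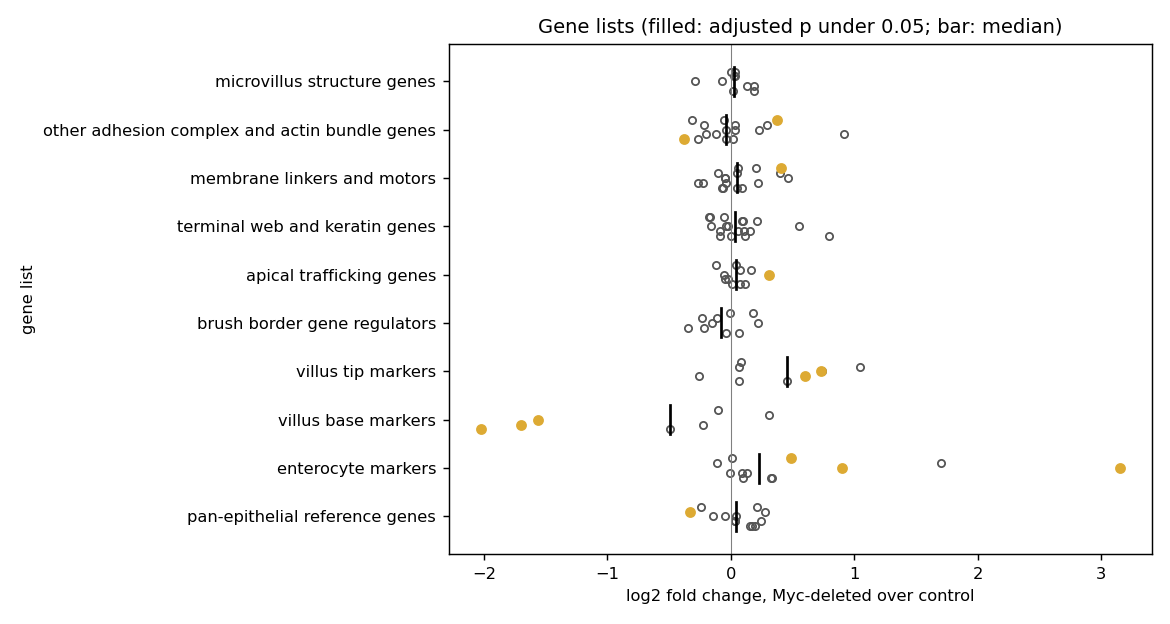
Each point is the log2 fold change, Myc-deleted over control, of 1 tested gene in the list named at the left, filled where the edgeR adjusted p was under 0.05, and bars are list medians. The 10 microvillus structure genes lie between -0.29 and 0.19 with none filled, and the 3 villus base genes at the far left are Reg3b, Reg3g and Reg3a.

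Markers of villus position and of cell types were measured in the same libraries. Of 9 villus tip markers, 2 rose (median 0.45), Slc28a2, a nucleoside transporter (0.73 ± 0.16, edgeR adjusted p = 0.0230), and Creb3l3, a transcription factor of lipid metabolism (0.60 ± 0.12, edgeR adjusted p = 0.0130). These tip markers summed to 2631 to 4319 CPM in the controls and to 4488 to 6586 CPM after Myc deletion. Apoa4, an apolipoprotein gene, contributed more to this sum than any other gene listed, with group means of 2025 and 3385 CPM. Its groups overlapped and it did not pass (log2 fold change 0.74, edgeR adjusted p = 0.146). The separation of the sums therefore leans in part on Apoa4, and a rise of the whole list was not tested. In the tip list 8 log2 fold changes were positive and 1 negative. At an unadjusted p under 0.05 edgeR counted 4 of 9, against 22.2% of all genes. The groups did not overlap in 3 of 9, against 27.8% of all genes. Of 7 villus base markers, 3 fell (median -0.50), with the antimicrobial lectin genes Reg3b (-2.03 ± 0.34, edgeR adjusted p = 0.00693) and Reg3a (-1.56 ± 0.15, edgeR adjusted p = 0.000704) lowest by p; the third, Reg3g, stood at -1.70 (edgeR adjusted p = 0.0239). Of 12 enterocyte markers, chiefly digestive enzymes and lipid carriers, 3 rose in edgeR (median 0.23), the lactase gene Lct (3.15), the fatty acid carrier gene Fabp2 (0.90) and the apolipoprotein gene Apoa1 (0.48). Lct had low levels, at 1.59, 1.04 and 3.78 CPM in the controls and 6.77, 30.4 and 18.9 CPM in the Myc-deleted mice. Lct lost its call in limma voom (adjusted p = 0.0642). The summed level was 39470 to 45944 CPM in the controls and 48207 to 52687 CPM in the Myc-deleted mice, without overlap, where the sums of the 10 microvillus genes (19361 to 22193 and 20489 to 23534 CPM) overlapped. The difference between these lists was not tested. Most of the rise in the enterocyte sum lay in Fabp2 (means of 4759 and 8859 CPM) and Apoa1 (9503 and 13280 CPM). Anpep, the highest gene of the list, stood at 15151 and 14011 CPM with overlapping groups. In the list 10 log2 fold changes were positive and 2 negative.

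Of 13 pan-epithelial genes such as Epcam and Cdh1, 1 fell (median 0.04), and their sum was 15213 to 16207 CPM in the controls and 14788 to 16493 CPM in the Myc-deleted mice. In edgeR 6 of the 13 had an unadjusted p under 0.05, against 22.2% of all genes. The groups did not overlap in 6, against 27.8% of all genes. Of the log2 fold changes 9 were positive and 4 negative, and DESeq2 called 1 higher and 1 lower. With the libraries scaled to these genes, none of the 10 microvillus genes passed either, and their log2 fold changes ran from -0.30 to 0.19. Tuft cells also carry villin; none of 7 tuft markers passed in edgeR, DESeq2 or limma voom or had an unadjusted p under 0.05 in any of them, and their sum was 38.7 to 53.5 and 41.4 to 44.9 CPM. None of 12 immune markers passed in any of the 3 tools (2 had an unadjusted p under 0.05 in edgeR), with sums of 409 to 431 and 391 to 455 CPM. The 6 endothelial markers held 0 calls and 0 unadjusted p under 0.05 in each tool. Of 7 fibroblast markers, Pdgfrb rose (1.33 ± 0.17, edgeR adjusted p = 0.00167). Of 9 enteroendocrine markers, 3 rose, led by the hormone genes Gcg (0.97) and Sst (0.78), and of 7 stem cell markers, Sox9 rose (0.86). Olfm4 and Smoc2, also stem cell markers, stood at -0.94 and -0.90 with groups that did not overlap and did not pass in edgeR (adjusted p = 0.0738 and 0.0783), while DESeq2 and limma voom called Olfm4 lower; both were named after their values were seen. In edgeR 0 of 10 proliferation, 0 of 8 Paneth cell, 0 of 8 goblet cell, 0 of 7 smooth muscle and 0 of 3 mesothelial markers passed, with 1, 4, 2, 3 and 1 at an unadjusted p under 0.05. DESeq2 called 1 goblet cell, 1 smooth muscle and 1 mesothelial marker, and limma voom none of them. None of 8 markers of enteric neurons and glia had enough counts to be tested. Of 4 tested hepatocyte markers, Alb (-2.15) and Tat (-1.46) fell, and Tat lost its call in DESeq2 (adjusted p = 0.0631). Without control library 2, calls were lost for Slc28a2, Creb3l3, Fabp2, Lct, Cldn3, Alb and Tat (edgeR adjusted p = 0.0546 to 0.130). Slc28a2 also lost its call when control library 3, Myc-deleted library 1 or Myc-deleted library 2 was left out, Creb3l3 without Myc-deleted library 2, Tat without control library 3, and Alb and Cldn3 without any library other than Myc-deleted 1. The part of these shifts in the values of the 10 genes was not tested.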

How the data were processed

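Polyadenylated RNA of 6 libraries was sequenced from stranded preparations, per the labels' protocols. The authors deposited a table of expected counts per gene, not scaled between libraries. The submitters' processing notes name cutadapt, STAR, Picard, RSEM and the build mm10; no source used here gives versions, annotation or strand setting. After rounding of the expected counts, the analysis ran in edgeR 4.0.16 under R 4.3.3 (filterByExpr with minimum count 10 and total 15, TMM scaling, quasi-likelihood F-test, Benjamini-Hochberg threshold 0.05), with limma 3.58.1 and DESeq2 1.42.0 as alternatives. Symbols, positions and lengths came from GENCODE M21 (GRCm38), matched by Ensembl identifier for 99.1% of genes. Standard errors were derived from the fold change and F, and 95% intervals used the test's degrees of freedom. A prior count of 2 was set for log2 CPM.

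The genes and lists were chosen with earlier results of these data known. Named besides the 10 genes were up to 5 called genes of each brush border list, 12 chosen genes, up to 2 called genes of each marker list and the 5 nearest profiles. Reg3g, Epcam, Cdh1, Krt23, Klf5, Eps8l1, Eps8l3, Stk10, Calm3, Apoa1, Apoa4, Anpep, Olfm4, Smoc2, Myc, Fabp6 and Alb were added. Alternatives covered scaling, filters, tools, the replicate block and leaving out each library.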

Additional observations from a re-analysis of the deposited data

How the results depend on the processing

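The 10 microvillus genes gave 0 calls under RLE and upper-quartile scaling, TMM without ribosomal protein genes, scaling to pan-epithelial genes, DESeq2, limma voom, both other filters and the replicate block. Eps8 had the lowest adjusted p in each. In edgeR it was 0.159 with upper-quartile scaling, 0.198 with the replicate block and 0.23 with RLE scaling. The unadjusted p of Eps8 was under 0.05 in each but RLE scaling and the filter at a CPM of at least 1 in 3 libraries. Leaving out 1 library gave 0 to 0 higher and 0 to 1 lower among the 10 genes. Signs near 0 turned. The median log2 fold change of all genes was -0.043 with upper-quartile scaling, against -0.002 in the main fit. With upper-quartile scaling the log2 fold change was -0.0209 for Vil1, -0.0164 for Myo1a, -0.0103 for Pls1, -0.00896 for Krt20 and -0.0215 for Anks4b, and Myo7b was 0.000217 with RLE and 0.000236 with DESeq2. Vill was 0.00194 with the replicate block and 0.107 with limma voom. Leave-one-out ranges were -0.0455 to 0.0799 for Vil1, -0.0169 to 0.0811 for Myo1a, -0.0826 to 0.0734 for Myo7b, -0.0170 to 0.101 for Pls1, -0.0596 to 0.0956 for Krt20, -0.472 to -0.204 for Eps8, -0.0260 to 0.0725 for Anks4b, -0.120 to 0.0196 for Espn, -0.115 to 0.00114 for Hnf4a, -0.336 to -0.0999 for Cdx2, -0.155 to 0.0210 for Rdx, -0.0246 to 0.119 for Slc9a3r1 and -0.418 to 0.288 for Vill. The cause was not tested.

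Over all genes, leaving out 1 library gave 229 to 503 higher and 233 to 447 lower calls. Without control library 2 they were 229 and 233. The 72 other brush border genes gave 0 to 2 higher and 0 to 3 lower in those runs, 1 higher and 2 lower with upper-quartile scaling, 5 and 2 without a filter on low counts, 5 and 3 with DESeq2, and 2 and 1 with the replicate block. The block changed the count over all genes to 552 higher and 428 lower, but the numbers were not taken as a pairing: deviations of same-numbered libraries correlated at only 0.0261, 0.0524 and 0.0189, although each library correlated best with its own number, a hint from the data and not the design. Of the named calls, Rab11a, Cldn3 and Alb were lost under the replicate block, Rab11a and Myo1c with upper-quartile scaling, Rab11a with pan-epithelial scaling, Lct with limma voom and Tat with DESeq2.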
